A study of Homo sapiens with 8 samples.

Results

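The distal arm of chromosome 8 was taken as the merged accessible regions with a midpoint in the 24.6 Mb that begin at position 120000000 of chromosome 8 (hg38), within band 8q24. An accessible region, or peak, is a stretch of DNA that the transposase of ATAC-seq cuts and tags more often than its surroundings. The peaks of 4 deposited lists, 1 per condition, were merged where they overlapped or touched, which gave 2411 merged peaks on the arm of 129052 on chromosomes 1 to 22 and X (1.87%). The arm was chosen by the number and direction of the regions that the authors' lists give as higher or lower in siOrc6. Its shares are therefore given as a description, without a test.

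U2OS, an established human osteosarcoma cell line, received for 72 h an siRNA against Orc6, a subunit of the origin recognition complex, or the control siRNA siGl3. All cells passed a double thymidine block and a 3 h release into early S phase, and were then left untreated or given 5 mM H2O2, an oxidant, for 30 min. Each of the 4 conditions (siGl3 untreated, siOrc6 untreated, siGl3 with H2O2, siOrc6 with H2O2) had 2 libraries, and 1 peak list that by its name covers both. No value per library was used here, so the depth is unknown, the spread between replicates cannot be given, and no difference between conditions could be tested.

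The origin recognition complex binds DNA and loads the helicase from which replication starts, and Orc6 is its smallest and least conserved member. Open chromatin at promoters and enhancers is where transcription factors and, in many cases, replication initiation factors bind. The distal 8q arm carries MYC, a transcription factor that drives growth and division, in a long stretch with few genes, and a dense block of genes towards the telomere. Gains of this arm are common in human tumours, osteosarcoma among them. No copy number was analysed here.

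The label of the cells was checked at marker genes, counting a gene as open where a peak lay within 1 kb of an annotated end in all 4 lists. Of 8 mesenchymal and bone markers 7 were open, and TWIST1 had no such peak. Markers of other cell types were open as well: 3 of 4 epithelial ones (not CDH1), 2 of 4 blood ones and 1 of 2 neuronal ones. Neither of 2 endothelial markers was open in all lists. The lists held between 97816 peaks (siOrc6 with H2O2) and 115292 peaks (siGl3 untreated). All 4 lists ended at nearly the same signal, the authors' value per peak. The lowest was 200.003 in siGl3 untreated, 200.001 in siOrc6 untreated, 200.006 in siGl3 with H2O2 and 200.002 in siOrc6 with H2O2. A peak that is missing from a shorter list may have fallen below that level, although the sources used here state no threshold.

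On the arm, fewer peaks were listed after siOrc6 than after siGl3 under both treatments. The arm held 2259 peaks in the siGl3 untreated list and 1953 in the siOrc6 untreated list. With H2O2 it held 2097 peaks in siGl3 and 1737 in siOrc6. As shares of their own lists these were 1.96% and 1.79% untreated, and 2.02% and 1.78% with H2O2, so the arm took a smaller share of each siOrc6 list than of the matching siGl3 list. The listed peaks of the untreated lists covered 1.79 Mb in siGl3 and 1.57 Mb in siOrc6.

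Peaks on the arm were wider than those elsewhere in all 4 lists. Their median widths lay between 586 and 593 bp on the arm, against 451 to 483 bp in the rest of the genome. Their strength within a list was near the middle: the median arm peak stood at percentile 52.8, 52.6, 51.0 and 53.0 of its own list by signal in siGl3 untreated, siOrc6 untreated, siGl3 with H2O2 and siOrc6 with H2O2. Signal is the authors' value per peak, and these percentiles place a peak within its own list only. Whether signal depends on the width of a peak was not tested.

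**Figure D1:**
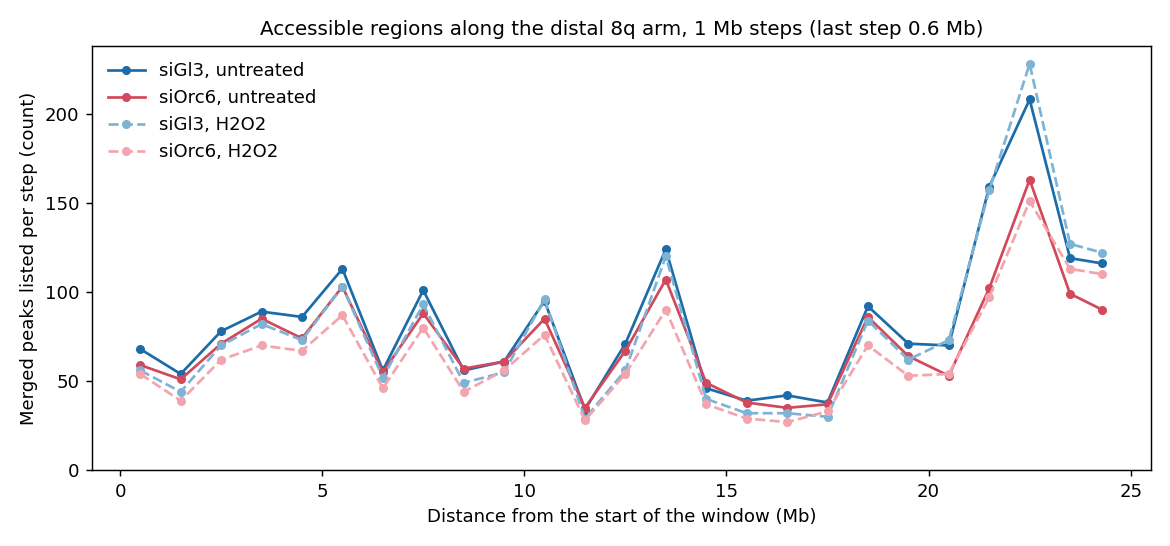
Merged peaks with a peak in each condition's list (count, vertical axis) in 1 Mb steps along the arm (horizontal axis, distance in Mb from the start of the window, the last step being 0.6 Mb). Each line is 1 condition; the siGl3 lines stand above the siOrc6 lines at most steps, and the gap is widest in the steps from 141 and 142 Mb, 21 and 22 Mb into the window.

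Of the 2411 merged peaks, 1418 (58.8%) had a peak in all 4 lists, against 62.8% on the rest of chromosome 8 and 62.1% in the rest of the genome. A further 147 merged peaks (6.10%, Wilson 95% interval 5.21 to 7.12) were listed in siGl3 under both treatments and not at all in siOrc6, against 3.07% and 3.57%. The reverse pattern was held by 19 (0.788%), against 1.58% and 1.54%. The pattern of siGl3 alone was thus more frequent on the arm, and that of siOrc6 alone less frequent, than in both comparison sets. These and the following intervals treat peaks as independent, which neighbouring peaks are not, and cover counting error only. Another uneven pattern was a peak in the siGl3 H2O2 list alone, held by 148 merged peaks (6.14%) against 1.98% on the rest of the chromosome and 3.00% elsewhere.

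Read from the control side, 400 of 2086 arm merged peaks listed in siGl3 untreated (19.2%, interval 17.5 to 20.9) were not listed in siOrc6 untreated. The same share was 13.0% on the rest of chromosome 8 and 13.9% in the rest of the genome. With H2O2 it was 428 of 1965 (21.8%, interval 20.01 to 23.66), against 12.1% and 13.4%. Read from the siOrc6 side the order was the other way: 7.06% of untreated and 5.53% of H2O2 arm merged peaks listed in siOrc6 were not listed in siGl3, against 10.4% and 8.99% in the rest of the genome.

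Between untreated and H2O2 lists of the same siRNA, the arm stood nearer to the rest of the genome. Of the siGl3 untreated merged peaks on the arm 15.5% were missing from the siGl3 H2O2 list, against 17.0% in the rest of the genome, and for siOrc6 these shares were 17.5% and 16.9%. In the other direction, 10.3% of the siGl3 H2O2 merged peaks on the arm were missing from the untreated list, against 7.96% elsewhere, and for siOrc6 8.05% against 7.01%. On the rest of chromosome 8 the shares were 18.1% for siGl3 and 18.4% for siOrc6 in the first direction. In the second they were 5.82% and 5.36%, so there the arm stood further above its own chromosome than above the genome.

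The control peaks without a siOrc6 counterpart were mostly weak ones. Their median stood at percentile 15.6 of the siGl3 untreated list and 16.9 of the siGl3 H2O2 list, while the arm peaks that had a counterpart stood at 64.8 and 63.8. Each siGl3 list was then cut into 4 equal parts by signal. In the weakest part, 56.4% of the untreated arm peaks had no siOrc6 counterpart, against 41.5% of peaks elsewhere. In the next part these shares were 21.6% and 11.8%, then 1.92% and 1.18%, and in the strongest part 0.299% (2 of 669 peaks) and 0.021%. With H2O2 the 4 shares on the arm, from weakest to strongest, were 59.3%, 25.8%, 3.42% and 0.175%, and 41.6%, 10.2%, 0.834% and 0.012% elsewhere. The arm therefore stood above the rest of the genome within each part of the lists. In the strongest part this rested on 2 of 669 arm peaks untreated and 1 of 572 with H2O2, too few to read. Almost all strong control peaks of the arm were listed after siOrc6 as well.

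The authors' 4 lists of changed regions, from which the arm was chosen, ran in the same direction, which that choice implies. The list lower in siOrc6 untreated had 185 regions on the arm and covered 203 merged peaks, or 8.42% (interval 7.38 to 9.60) where 4.74% of all merged peaks in the genome were at such a region. The list higher in siOrc6 untreated had 85 regions there and covered 95 merged peaks, or 3.94% (3.23 to 4.79), with 6.85% over all merged peaks. With H2O2, 58 lower regions covered 62 merged peaks, or 2.57% (2.01 to 3.28), with 1.19% over all. The 12 higher regions with H2O2 covered 13 merged peaks, or 0.539% (0.315 to 0.920), with 0.945% over all. Since the arm was chosen from these lists, those shares and the ones that follow describe it and support nothing further. The earlier shares of siGl3 peaks not listed in siOrc6 carry the same choice. All 185 lower untreated regions had a siGl3 untreated peak, and 96 of them had a siOrc6 untreated one.

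**Figure D2:**
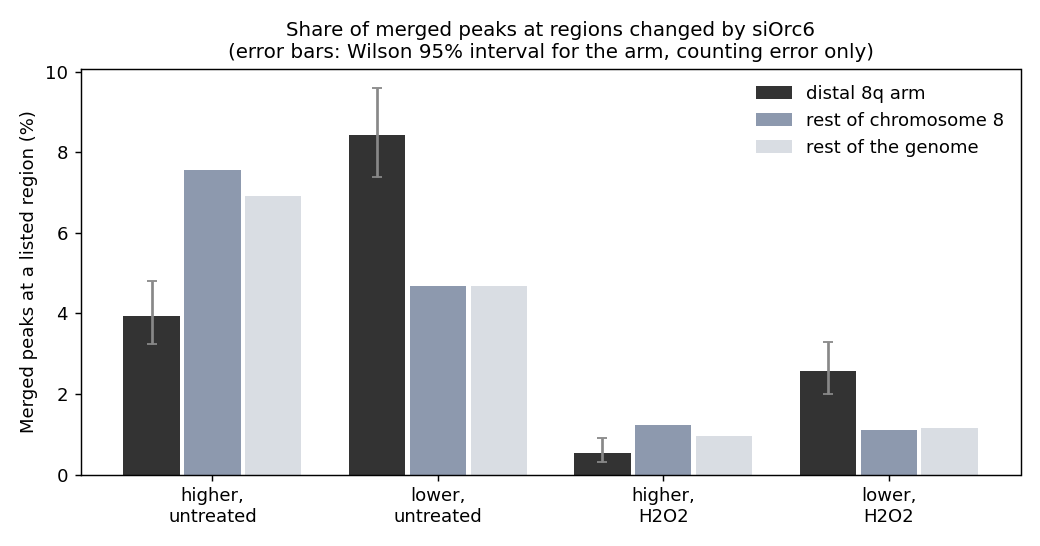
Share of merged peaks (%, vertical axis) that overlap a region of each of the authors' 4 lists of changed regions (horizontal axis), for the arm, the rest of chromosome 8 and the rest of the genome; error bars are Wilson 95% intervals for the arm and cover counting error only. The arm bar is the highest of its 3 in both lower lists (8.42% and 2.57%) and the lowest in both higher lists (3.94% and 0.539%).

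Relative to the rest of the genome the share at lower regions was 1.80 times as large untreated and 2.21 times as large with H2O2, and the share at higher regions 0.570 and 0.566 times as large. The rest of chromosome 8 did not share this balance: 4.67% of its merged peaks were at a lower and 7.57% at a higher region untreated. Lower regions made up 68.5% of all changed regions on the arm untreated and 82.9% with H2O2. Over the other 22 chromosomes that share ran from 26.8% (X) to 50.0% (chromosome 2) untreated. With H2O2 it ran from 30.6% (chromosome 19) to 73.3% (chromosome 16), so no other whole chromosome stood above the arm in either treatment. Windows of the arm's size elsewhere were not compared, and a whole chromosome can hide a shorter stretch. With H2O2 the arm's share rested on 70 regions (interval 72.4 to 89.9), and the interval of chromosome 16 was 63.4 to 81.4. Without the 4 steps of the arm with most changed regions (133, 138, 141 and 142 Mb) its shares were 60.4% and 72.5%, and with H2O2 it then stood below chromosomes 16 (73.3%) and 17 (72.9%).

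Regions recurred between treatments on the arm at shares near those of the rest of the genome, and no region changed direction. Of the 58 regions lower with H2O2, 34 (58.6%) overlapped a region lower untreated, and these were 34 of 185 (18.4%) of the untreated list, against 60.9% and 15.5% elsewhere. For the higher lists, 11 of 12 regions with H2O2 (91.7%) overlapped a higher untreated region, which were 11 of 85 (12.9%), against 71.2% and 10.8% elsewhere. Regions that were lower with H2O2 and higher untreated, or the reverse, numbered 0 on the arm and 0 elsewhere.

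Most lower regions lay away from gene ends. Of the 185 lower untreated regions, 115 (62.2%) lay outside protein-coding genes and 3 (1.62%) within 1 kb of a gene end. Those 3 were at C8orf90, LYNX1 and HGH1. Of the 85 higher untreated regions, 7 (8.24%) lay at gene ends and 63 (74.1%) outside genes. Elsewhere, 3.10% of lower and 15.6% of higher untreated regions lay at gene ends, and 50.7% and 50.1% outside genes. Lower regions were thus rare at gene ends elsewhere too. Over all arm merged peaks 7.01% were at gene ends, against 13.3% in the rest of the genome, and 57.2% lay outside coding genes, against 45.9%. A siOrc6 untreated peak was still listed at 96 of the 185 lower untreated regions (51.9%), against 43.7% of such regions elsewhere. A listed siOrc6 peak thus remained at part of them. Their median width was 604 bp against 431 bp elsewhere.

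Along the arm the lower regions were gathered in a few stretches. In 1 Mb steps, the steps with most changed regions of all lists began at 142 Mb (32 regions), 133 Mb (31), 138 Mb (29), 141 Mb (26) and 125 Mb (19). The same 5 steps held 21, 20, 16, 18 and 14 lower untreated regions. In 2845 steps outside the arm the median was 1 and the highest 13. For lower regions with H2O2, the steps from 133, 138 and 142 Mb held 8 each, which equals the highest count elsewhere. The number of merged peaks in a step also varied, from 40 (131 Mb) to 253 (142 Mb) on the arm with a median of 87, against a median of 38 elsewhere. The steps with the fewest after 131 Mb were those from 137 Mb (43) and 136 Mb (44). The 5 steps with most changed regions held 253, 146, 103, 186 and 125 merged peaks, in the order given above. Counts of changed regions were not scaled to the number of merged peaks, so a step rich in peaks can lead for that reason alone.

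**Figure D3:**
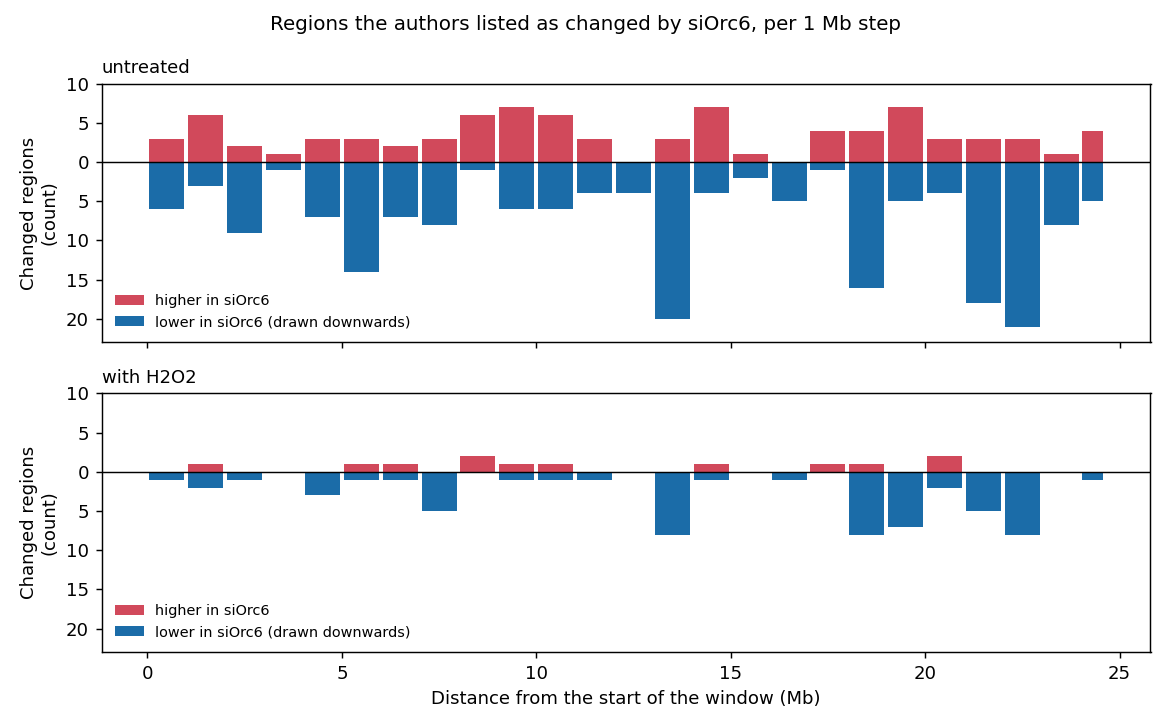
Regions per 1 Mb step (count, vertical axis) that the authors listed as higher in siOrc6 (upward bars) or lower in siOrc6 (downward bars), along the arm (horizontal axis, Mb from the start of the window), untreated above and with H2O2 below. The longest downward bars untreated stand at 22 Mb (21 regions) and 13 Mb (20 regions) into the window.

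Lower regions outnumbered higher ones in 17 of the 25 steps untreated, higher ones outnumbered lower ones in 6, and 2 steps were even. With H2O2 these numbers were 13, 2 and 10. Among the steps that ran the other way, that from 128 Mb held 6 higher and 1 lower untreated region and that from 137 Mb 4 higher and 1 lower, and the steps from 129 and 139 Mb held 7 higher each with 6 and 5 lower. Listings were fewer in siOrc6 than in siGl3 in 21 steps untreated and in 23 steps with H2O2. The siOrc6 lists were also shorter over the whole genome, with 109304 peaks against 115292 untreated and 97816 against 103674 with H2O2. Steps outside the arm were not counted in these ways, so none of these step counts is shown to be particular to the arm.

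The steps from 141 and 142 Mb had the largest numbers of siGl3 listings missing from siOrc6. From 141 Mb, 159 merged peaks were listed in siGl3 untreated, 102 in siOrc6 untreated, 157 in siGl3 with H2O2 and 97 in siOrc6 with H2O2. In the next step, from 142 Mb, these numbers were 208, 163, 228 and 151. The share of siGl3 merged peaks kept in siOrc6 was 63.5% untreated and 59.2% with H2O2 from 141 Mb, and 76.0% and 64.9% from 142 Mb, where the median step elsewhere with at least 20 siGl3 peaks kept 87.0% and 87.8%. In longer blocks, siGl3 merged peaks that were not listed in siOrc6 untreated made up 14.4% from 120 to 130 Mb, 15.95% from 130 to 140 Mb and 27.7% from 140 Mb to the end, and 15.8%, 19.1% and 29.7% with H2O2. In the rest of the genome these shares were 13.9% and 13.4%, so the excess was largest in the block from 140 Mb to the end. Within that block it was uneven. The steps from 143 and 144 Mb, nearest the telomere, kept 79.8% and 71.6% of siGl3 merged peaks untreated, and 83.5% and 82.0% with H2O2. Untreated, the blocks before 140 Mb stood close to the rest of the genome, and no interval was computed for the blocks. Without the steps from 141 to 143 Mb, the shares over the arm were 17.0% untreated and 18.0% with H2O2.

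**Figure D4:**
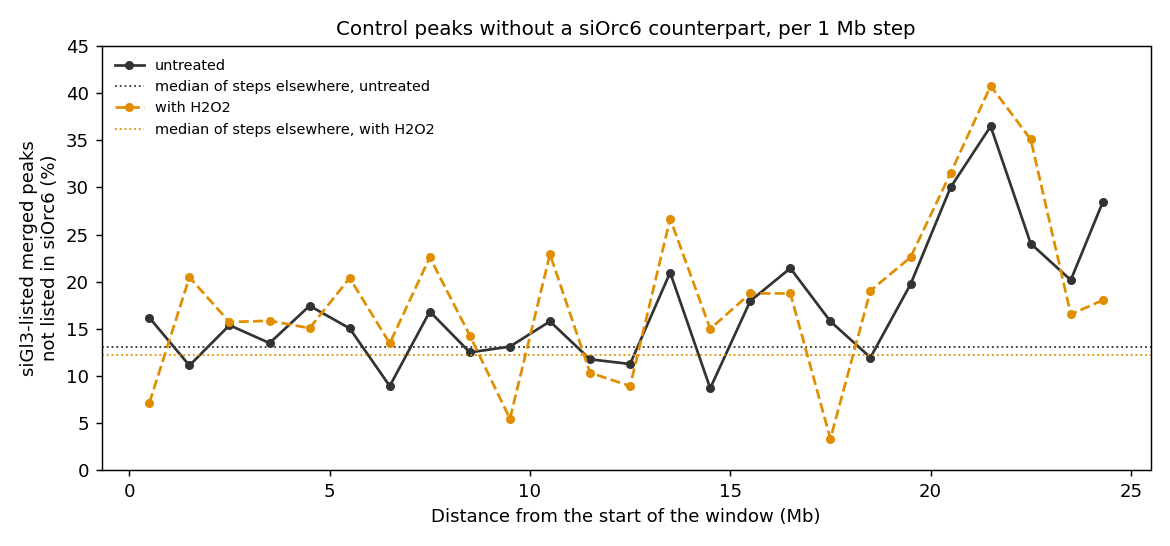
Share of merged peaks listed in siGl3 that had no peak in siOrc6 (%, vertical axis) per 1 Mb step (horizontal axis, Mb from the start of the window), untreated and with H2O2; dotted lines are the medians of steps outside the arm with at least 20 siGl3 peaks. Most steps lie above their dotted line (18 of 25 untreated and 20 of 25 with H2O2), and both lines are highest at the step from 141 Mb.

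The longest run of lower untreated regions, with gaps of at most 50 kb, was 12 regions over 121 kb at chr8:141618349-141739760, which touches no protein-coding gene and whose nearest is C8orf90. In the siGl3 untreated list these regions stood between percentiles 22.1 and 85.5, and 9 of the 12 had no siOrc6 untreated peak. The next run held 8 regions over 185 kb at chr8:133608966-133793681, on the far side of ST3GAL1, and 3 of the regions lower with H2O2 lay in it. Another 6 lay at chr8:125440209-125481060, beside TRIB1, and 6 at chr8:138835046-138883353 inside COL22A1. The same gene held 5 regions lower with H2O2 at chr8:138634284-138723381. NSMCE2, ADGRB1, TOP1MT with RHPN1, and HGH1 with MROH1 were each touched by a run of 4.

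No region at MYC, taken with the 5 kb beyond either end, was in the authors' 4 changed-region lists. The siGl3 untreated list held 5 peaks there, siOrc6 untreated 6, siGl3 with H2O2 4 and siOrc6 with H2O2 3, which merged to 3 regions. The merged peak over the start of MYC, chr8:127733787-127740302, was 6516 bp wide and stood at percentile 99.6, 99.6, 99.95 and 99.99 of the 4 lists in that order. The peak at the other end of MYC, chr8:127741684-127743852, stood between 90.3 and 93.1 in all 4. Within 50 kb of MYC, 4 changed regions were listed. A higher untreated region lay 17.1 kb beyond the gene at chr8:127760029-127761284, and 2 lower untreated and 1 lower H2O2 region lay 37.0 to 46.5 kb on the other side, towards CASC11, a long noncoding RNA.

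NDRG1, a gene induced by hypoxia and other stress, also had no changed region within 5 kb. Its peaks numbered 3 in siGl3 untreated, 3 in siOrc6 untreated, 5 in siGl3 with H2O2 and 1 in siOrc6 with H2O2. The merged peak at its end of higher coordinate, where this gene of the minus strand starts, was chr8:133293322-133298621 (5300 bp) and stood at 99.9 or above in every list. A lower untreated region lay 5.73 kb beyond that end, just past the 5 kb counted, at chr8:133302987-133303607, and stood at 75.6, 51.1, 69.9 and 44.9 of the lists in the order above. The other NDRG1 peaks were weak, at percentile 24.0 or below, and none of them was listed in siOrc6 with H2O2. The 2 that were listed in siGl3 with H2O2 alone stood at 2.69 and 0.314 of that list, near its threshold.

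CCN4, a secreted matrix protein of the Wnt response, lies next to NDRG1 and held 10 peaks in siGl3 untreated, 10 in siOrc6 untreated, 9 in siGl3 with H2O2 and 8 in siOrc6 with H2O2. It had no changed region, and 8 of its 11 merged peaks were in all 4 lists. Its start, chr8:133190399-133191856, stood between percentiles 86.2 and 88.9. CHRAC1, a histone-fold subunit of the ISWI remodeller CHRAC, had 1 merged peak, chr8:140509694-140512719, which stood at 99.8 in all 4 lists and at no changed region.

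TRIB1, a pseudokinase that guides a ubiquitin ligase to its targets, had no change at its main peaks and lower regions in its flank. Its start, chr8:125428961-125433030, stood at 99.84 to 99.97 of the 4 lists and was at no changed region. The flank beyond the gene held 2 lower untreated regions. At the first of these, chr8:125440210-125441096, the peak stood at 60.0 in siGl3 untreated, 16.1 in siOrc6 untreated and 32.5 in siGl3 with H2O2, and was not listed in siOrc6 with H2O2. At the second, chr8:125443320-125443994, it stood at 63.0, 34.6 and 32.4, and again was not listed in siOrc6 with H2O2. Another 4 lower untreated regions followed within 42.2 kb of the gene, and none of the 6 was in the list lower with H2O2.

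PTK2, which encodes focal adhesion kinase, had changed regions in both directions. Its peaks numbered 20 in siGl3 untreated, 17 in siOrc6 untreated, 19 in siGl3 with H2O2 and 15 in siOrc6 with H2O2. The higher untreated region chr8:140999916-141003838 (3923 bp) covered the end of higher coordinate, where PTK2 starts. It joined a strong peak at 99.6 to 99.7 of every list and a neighbour that stood at 11.5 in siGl3 untreated, 53.2 in siOrc6 untreated, 33.6 in siGl3 with H2O2 and 58.7 in siOrc6 with H2O2. The 2 lower untreated regions inside PTK2 were weak peaks listed in siGl3 untreated alone, at percentiles 11.6 and 7.06.

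**Figure D5:**
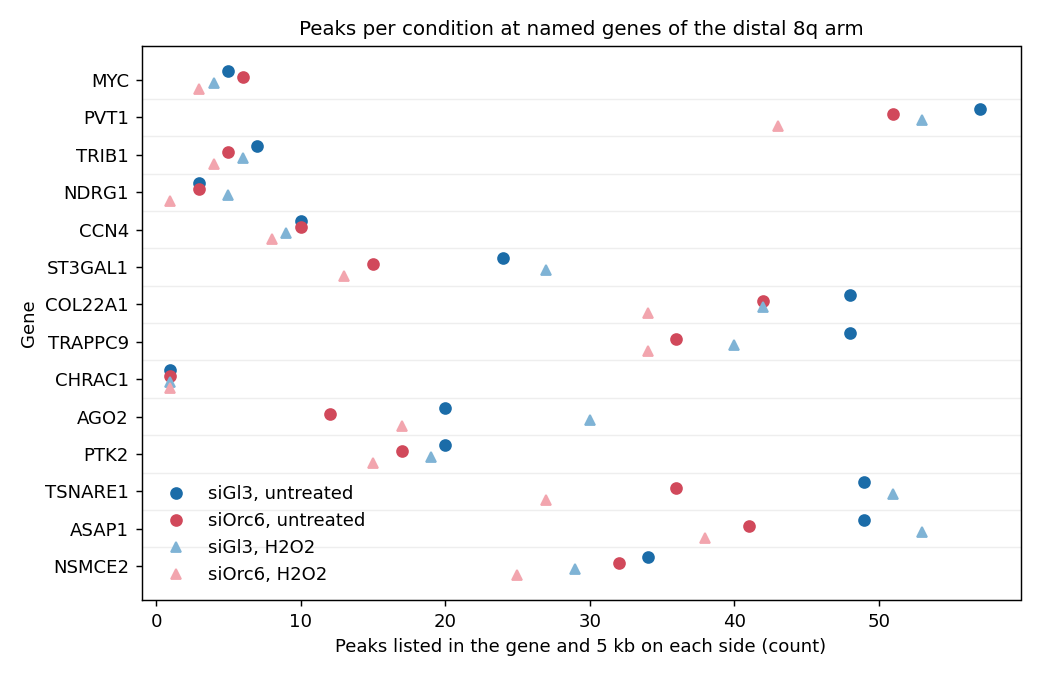
Number of peaks (horizontal axis, count) within 5 kb of each of 14 genes of the arm (vertical axis, gene bodies included), with 1 symbol per condition. ST3GAL1, AGO2, TSNARE1, ASAP1, TRAPPC9, PVT1, PTK2 and TRIB1 have fewer peaks in both siOrc6 lists than in both siGl3 lists. MYC has 3 to 6 peaks and CHRAC1 has 1 in every list. Each siOrc6 list is also shorter than its siGl3 list over the whole genome.

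Of 151 protein-coding genes of the arm, 131 had a merged peak in the gene or 5 kb around it and 50 of these (38.2%) had a changed region of any list, against 30.8% of 17141 genes with a peak elsewhere. Lower regions alone were held by 28, higher regions alone by 12 and both by 10. A lower untreated region was held by 38 of the 131 genes (29.0%), against 13.6% elsewhere, and a lower H2O2 region by 15 (11.5%), against 3.95%. A higher untreated region was held by 21 (16.03%), against 20.3%, and a higher H2O2 region by 2 (1.53%), against 2.76%. Gene length was not matched in these shares.

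TRAPPC9 and COL22A1 led the arm with 16 changed regions each, counted over all 4 lists. Regions of both treatments that overlap are counted in each, and joined they made 11 distinct places in TRAPPC9 and 13 in COL22A1. In COL22A1, a collagen of tissue junctions, 9 regions were lower untreated, 6 lower with H2O2 and 1 higher untreated. Its listed peaks numbered 48 in siGl3 untreated, 42 in siOrc6 untreated, 42 in siGl3 with H2O2 and 34 in siOrc6 with H2O2. At chr8:138719370-138720159 inside it, a region lower under both treatments, the peak stood at 67.7, 44.0, 80.1 and 51.4 of the lists in that order. TRAPPC9, a subunit of the vesicle-tethering TRAPP complex, was mixed: 3 regions were lower and 4 higher untreated, and 7 lower and 2 higher with H2O2. One end of that contrast was chr8:139799712-139800731, lower under both treatments and at 71.6, 47.9, 67.4 and 55.7. The other was chr8:140063651-140064659, higher under both and at 59.6, 71.1, 40.5 and 67.5.

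TSNARE1, which has a SNARE domain, had 7 changed regions, of which 6 were lower, and its peaks numbered 49 in siGl3 untreated, 36 in siOrc6 untreated, 51 in siGl3 with H2O2 and 27 in siOrc6 with H2O2. TG, the thyroid hormone precursor, had 6 changed regions, all lower. FAM135B had 6, of which 2 were higher, 1 of them at its end of higher coordinate. ST3GAL1, a sialyltransferase, had 5, all lower, and its peaks numbered 24 in siGl3 untreated, 15 in siOrc6 untreated, 27 in siGl3 with H2O2 and 13 in siOrc6 with H2O2. Its main peak, chr8:133568163-133573769, stood at 99.97 to 99.98 of every list, so the unlisted peaks were inside the gene. ASAP1, a GTPase-activating protein for Arf proteins, had 3 higher and 2 lower regions, and SNTB1, a syntrophin of the dystrophin complex, had 1 higher and 4 lower.

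Among 8 genes of replication and genome maintenance, all had peaks and 4 had a changed region, where 38.2% of the arm's coding genes with a peak and 30.8% of those elsewhere had one. NSMCE2, the SUMO ligase of the SMC5/6 complex, had 4 lower untreated regions, TOP1MT, the mitochondrial topoisomerase, 3 and PARP10, a mono-ADP-ribosyltransferase, 1. In NSMCE2 the strongest of them, chr8:125333864-125335275, stood at 87.6 in siGl3 untreated, 69.4 in siOrc6 untreated, 77.4 in siGl3 with H2O2 and 61.3 in siOrc6 with H2O2. TONSL, which protects stalled forks, had 1 higher untreated region of 4145 bp that it shares with the end of VPS28. MTBP, a partner of the origin-firing factor Treslin, ATAD2, a bromodomain ATPase, and the helicase RECQL4 had no changed region, and the peak at the start of MTBP stood between 72.1 and 82.5 of the 4 lists.

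Among 12 genes of growth signalling and transcription, 11 had peaks and 7 had a changed region, beside the same 38.2% and 30.8%. Each of the 7 (TRIB1, PTK2, ASAP1, AGO2, ZHX2, ZFAT and KHDRBS3) had a lower untreated region, and ASAP1 and PTK2 had higher ones as well. AGO2, the slicer of RNA interference, had peaks numbering 20 in siGl3 untreated, 12 in siOrc6 untreated, 30 in siGl3 with H2O2 and 17 in siOrc6 with H2O2, and 7 of its 30 merged peaks were listed in siGl3 under both treatments and never in siOrc6. It had 1 lower region in each treatment, so most of these differences in listing were not in the authors' lists of changed regions.

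Of 9 matrix and adhesion genes all had peaks and 4 had a changed region, beside the same 38.2% and 30.8%. COL22A1, MTSS1, SNTB1 and ST3GAL1 each had lower regions under both treatments, and 3 of the 4 also had a higher untreated one. COL14A1, HAS2, the hyaluronan synthase, CCN4, PLEC and EPPK1 had none. Of 11 genes of stress and metabolism 9 had peaks and 0 had a changed region within 5 kb, where 30.8% of genes elsewhere had one, NDRG1, FBXO32, SQLE and DGAT1 among them. Of 16 genes with a role in neurons or other tissues, 16 had peaks and 8 a changed region, beside the same 38.2% and 30.8%. KCNQ3, ADCY8, TG, FAM135B, ADGRB1 and SLURP1 had lower regions and KCNK9, FER1L6 and FAM135B higher ones untreated.

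Long noncoding RNA genes near MYC held changed regions in both directions. Of 5 listed, 4 had peaks and all 4 had a changed region. No such share was computed over other long noncoding genes, and PVT1, CCDC26 and CASC8 are long (307, 329 and 192 kb). PVT1, the neighbour of MYC, had 57 peaks in siGl3 untreated, 51 in siOrc6 untreated, 53 in siGl3 with H2O2 and 43 in siOrc6 with H2O2, with 2 higher and 1 lower region untreated and 1 lower with H2O2. CCDC26 had 3 higher and 2 lower untreated regions and 1 higher with H2O2. CASC8 had 2 lower regions in each treatment and CASC11 1 in each. Over all 61 listed genes, 57 had peaks, 27 had a changed region, 24 a lower untreated and 11 a higher untreated one.

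The arm carried the widest open region of the 4 lists. None of its 12 widest was at a changed region, which few wide regions were anywhere. Of regions wider than 5 kb, 2 of 28 on the arm (7.14%) and 9 of 131 elsewhere (6.87%) were at one. Of 159 merged peaks wider than 5 kb anywhere, 28 (17.6%) were on the arm, and of 11 wider than 10 kb, 6 (54.5%) were, where the arm holds 1.87% of all merged peaks. The widest, chr8:143925448-143955150, spanned 29.7 kb of PLEC, which encodes the cytoskeletal linker plectin, and the widest outside the arm 17.4 kb on chromosome 7. The PLEC region held the peak with the highest signal of the siGl3 untreated, siOrc6 untreated and siOrc6 H2O2 lists and the next highest of the siGl3 H2O2 list. Its widest single peak measured 24.9 kb in siGl3 untreated, 17.6 kb in siOrc6 untreated, 19.6 kb in siGl3 with H2O2 and 23.4 kb in siOrc6 with H2O2, with no order by siRNA or treatment. The others wider than 10 kb lay at PLEC (13.7 kb), RHPN1 (13.1 kb), GPT with RECQL4 and LRRC14 (13.0 kb), MROH1 with BOP1 (11.9 kb) and HSF1 with DGAT1 (10.8 kb).

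HSF1 is the heat shock transcription factor and DGAT1 makes triglycerides. Their shared region was split into 4 peaks in siGl3 untreated and 2 in siOrc6 untreated, while each H2O2 list held it as 1 peak of 10.5 kb in siGl3 and 10.8 kb in siOrc6. The widest peak of the region of GPT, RECQL4 and LRRC14 measured 6.17 kb in siGl3 and 6.26 kb in siOrc6 untreated and 11.7 kb and 12.4 kb with H2O2. At BOP1 the widest peak of another such region, chr8:144268589-144278303, measured 6.67 kb and 4.68 kb untreated and 9.28 kb and 8.62 kb with H2O2. In these 3 regions single peaks were thus wider in both H2O2 lists than in both untreated lists. Over the 28 arm regions wider than 5 kb this was so in 13 (46.4%), with the reverse in 2, and elsewhere in 41 of 131 (31.3%), with the reverse in 23. A wide region beside ARC, chr8:142610206-142619634, differed less, from 5.29 kb to 6.58 kb.

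Among changed regions, the widest higher untreated ones lay at gene ends in the last step: 4640 bp at SCRT1, 4145 bp at VPS28 with TONSL and 4070 bp at ZFTRAF1. The widest lower untreated ones were 4597 bp in ADGRB1, an adhesion receptor of neurons, 3335 bp in DEPTOR, an inhibitor of mTOR, and 3250 bp at C8orf90. The C8orf90 region stood at 75.6 in siGl3 untreated and 62.1 in siGl3 with H2O2 and was listed in neither siOrc6 list. With H2O2 the widest lower region was 3249 bp, again in ADGRB1, followed by 2322 bp in the run near C8orf90 and 1970 bp in TRAPPC9. The widest higher ones with H2O2 were 1003, 944 and 923 bp, all outside genes and all at a region higher untreated as well.

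At the edges of the window single merged peaks differed in pattern. The first merged peak inside, chr8:120000271-120000453, was listed in siGl3 untreated alone, and the nearest outside on that side, chr8:119982218-119983041, was in all 4 lists and at no changed region. The last inside, chr8:144591672-144591983, was listed in siGl3 with H2O2 alone and lower with H2O2. The nearest outside there, chr8:144599695-144600684, was in both siGl3 lists alone and at a lower untreated region.

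Some stretches of the arm had no peak in any list. There were 18 gaps over 100 kb, of which 3 touched at least 4 protein-coding genes, with 8, 8 and 4 genes over 109 kb, 196 kb and 168 kb. They include genes that every cell uses, such as the elongation factor gene EEF1D, so nothing is read from the lack of a peak there. Of the listed genes PTP4A3, NAPRT, GSDMD and PCAT1 had no peak in any list and were not analysed here.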

How the data were processed

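ATAC-seq libraries of U2OS cells (8 libraries, 2 per condition) were represented by 4 peak lists, 1 per condition, and 4 lists of changed regions. The labels do not say whether libraries came from separate cultures. Per the submitters' processing notes, the authors' tools include Genrich, edgeR, Bowtie2, SAMtools, Picard, deepTools and bcl2fastq 2.20, on hg38; their roles, thresholds, read shifting and duplicate handling are not given in the sources used here. The deposited peak lists give a display score, a signal per peak, and −log10 p and q values of the authors' caller. Signal alone was used, to rank peaks within a list. The deposited changed-region lists hold only positions and serial numbers.

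Overlapping or touching peaks on chromosomes 1 to 22 and X were merged, and compared with changed regions by overlap of at least 1 bp. Gene positions came from RefSeq (GRCh38.p14), without strand. A gene includes 5 kb on each side, and a gene end 1 kb around either annotated end. Named genes were MYC, NDRG1, CCN4, TRIB1, PTK2 and CHRAC1, listed genes with a changed region or without peaks, the 8 genes with most changed regions, the 3 widest regions per list, and the 5 steps with most changed regions and the 3 with fewest peaks. The members, lists and rules were chosen with earlier results of these data known. Wide peaks, runs of regions and genes beside them were chosen after their values were seen. Merging was tested on simulated intervals. Alternatives were other merging, overlap, strength, gene windows and step grids. Sequences of the regions and copy number were not analysed here. Some marker genes are not reported here by name.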

Additional observations from a re-analysis of the deposited data

How the results depend on the processing

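No paired analysis was possible because each condition had 1 list and no value per library, and for the same reason no replicate could be left out. The ratio of the arm to the rest of the genome stayed above 1 in 14 of 14 alternatives for the lower lists and below 1 in 14 of 14 for the higher lists. Since the arm was chosen from these same lists, that choice implies the direction, and these counts support nothing further. Of 84 alternative values 27 moved by more than the counting interval, or 1.5 times for a count; the cause was not tested. With only the stronger 50% of each list by signal, the arm held 1235 merged peaks, 63.7% of them in all 4 lists and 5.02% at regions higher untreated. The ratio for lower untreated regions was then 2.10. The shares of siGl3 merged peaks without a peak in the stronger 50% of siOrc6 were 17.5% untreated and 18.1% with H2O2. Weaker siOrc6 peaks, left out in this setting, may lie at them. Against the full siOrc6 untreated list, 1.92% and 0.299% of arm peaks in the 2 stronger parts of siGl3 had no counterpart. Merging peaks up to 500 bp apart gave 62.8% in all 4 lists and 17.3% and 19.5% not in siOrc6. Without the leading pair of steps (141 and 142 Mb), 60.8% were in all 4 lists and 17.0% and 18.0% not in siOrc6. Without the 4 leading steps (133, 138, 141 and 142 Mb) these values were 60.9%, 17.0% and 17.2%, the shares at lower regions 7.08% untreated and 1.80% with H2O2, their ratios 1.52 and 1.55, and lower regions 60.4% of the changed regions untreated and 72.5% with H2O2. Both sets of steps were chosen after seeing the data. Gene ends of 3 kb took in 11.3% of merged peaks. With 50 kb on each side, 48 of the listed genes had a changed region, with 4 regions at MYC, 8 at TRIB1 and 1 each at NDRG1 and CCN4, and with the gene body alone TRIB1 had 0.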
